A study of Mus musculus with 3 samples.

Results

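The zinc finger genes with numbered Zfp symbols and an active class code were examined in mouse embryonic stem (ES) cells that carry a transgenic form of the histone variant H2A.Z. A gene was taken when its symbol was Zfp followed by up to 3 digits and the deposited table gave it the code for an active promoter, with the pluripotency marker Zfp42 left out. The rule used no expression value. It took 294 of the 326 numbered Zfp genes among the 15311 genes of the table. Of the rest, 13 were bivalent (promoters with both an activating and a Polycomb mark), 16 had no class code, 2 had a code of 0 that the header does not explain, and Zfp42 was the last. Levels are given in CPM, reads of a gene relative to the size of its library. A mean level of 0.5 CPM, needed to be tested, was reached by 289 of the 294 and by 10695 of the 11244 other active genes. The 5 that missed it were Zfp457, Zfp488, Zfp524, Zfp771 and Zfp872.

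Polyadenylated RNA was sequenced in 3 strand-specific libraries. The wild-type group (2 libraries) carried H2A.Z-YFP, and the K3R3 group (1 library) carried the same fusion with the C-terminal lysines that can take up ubiquitin changed to arginine. Both transgenes came from lentiviruses with a CMV promoter under rtTA control, were induced with doxycycline at 1 µg/ml, and were sorted for yellow fluorescence. Both lines also held a short hairpin against the untranslated end of the endogenous H2A.Z message, with blasticidin selection. The labels describe KH2 ES cells for these lines and V6.5 ES cells for the general culture, on irradiated fibroblast feeders that were left out at the final passage. They do not say which of the listed hairpins was used, how many clones a line held, or whether the wild-type replicates were separate cultures. The p-values therefore cover the spread among these libraries alone, and that spread may be technical.

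Most Zfp proteins read DNA through tandem C2H2 fingers, each a short loop held by a zinc ion. Many also carry a KRAB domain, which recruits the corepressor TRIM28 (KAP1), and with it the H3K9 methyltransferase SETDB1 and HP1 proteins, to silence transposable elements and to hold imprints in ES cells. The family grows by tandem duplication, so neighbouring members often resemble each other. A smaller set binds RNA, ribosomes or the spindle.

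The library totals were 21614693 and 25426228 counts in wild-type replicates 1 and 2 and 24718223 in K3R3, of which the 294 genes took 244340, 326264 and 302750. Summed over these genes the level was 11624, 13143 and 11629 CPM. A chi-square of counts over the 294 genes gave 19.4 per degree of freedom between the replicates, so they differed by more than counting noise and were kept as separate samples. The values were 22.3 for K3R3 against replicate 1 and 12.4 against replicate 2. H2afz, the targeted gene, stood at 219, 232 and 222 CPM, which checks neither the knockdown nor the labels because both groups held the hairpin and the transgene adds reads. The ES markers were present, with 8 of 8 tested and a summed level of 5509, 4403 and 3695 CPM. Of 20 fibroblast markers 17 had a row (all but Lum, Postn and Fap), and these summed to 1623, 1581 and 1259 CPM. Their median fitted log2 change in K3R3 was 0.50, and 5 of the 17 lay below 0, beside 52.0% of all genes. At an unadjusted p under 0.05 by edgeR, 5 lay higher (Thy1, Twist1, Col6a1, Mgp and Fbn1) and 2 lower (Fn1 and Vim). In either direction the share of all genes was 11.2%. Thy1 was called higher by edgeR (1 of 17, beside 2.02% of all genes). DESeq2 called 0 of the 17 (beside 0.427%), while the abundant Fn1 and Vim stood at -0.49 and -0.40. The part of such cells in the results was not tested.

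Reference transcripts (GENCODE M21, GRCm38) were matched for 292 of the 294 genes. A KRAB domain was found in 175 of their proteins, and the median protein held 10 C2H2 fingers, with up to 36. The finger pattern was absent from 8, and 245 had at least 5. Another numbered Zfp gene lay next to 160 of the 292. Exact sharing of sequence bears on the counts of such a family, because a read from a shared stretch may fit another gene as well. Transcripts were compared by gene name, so transcripts that overlap at the same place also count as shared. In 50 of the genes more than 10% of 36-letter stretches also occurred in the transcript of another gene, and in 100 genes none did.

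The most repeated stretch is the linker between fingers, which reads threonine, glycine, glutamate, lysine, proline in most C2H2 proteins. It was found 1236 times in 219 of the genes, written in 172 different DNA codes. The commonest code, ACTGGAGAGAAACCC, accounted for 137 copies (11.1%) in 51 genes. The linkers below are shown because they carry both what these genes share and what tells them apart. They come from the only gene called in K3R3 (Zfp711), from the repressor of retroviruses Zfp809, and from 3 genes with wide gaps between the wild-type libraries, with the linker codons in capitals and the flanking finger codons in lower case, 5′ to 3′ on the coding strand.
Zfp711: catACTGGTGAGAAGCCAtatcagtgtcag
Zfp809: catACGGGCGAGAAACCAtatgaatgtaca
Zfp940: cacACTGGAGAGAAACCTtttaaatgtaag
Zfp39: cacACGGGTGAGAAACCCtatggttgtgaa
Zfp799: cacACTGGTGAGAAGCCCtatatgtgtaag

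In GRCm38 these lie in coding exons at chrX:112632849-112632878 (plus strand), chr9:22239079-22239108 (plus), chr7:29845368-29845397 (minus), chr11:58890615-58890644 (minus) and chr17:32820529-32820558 (minus), in the order shown. The code in Zfp940 was present 85 times in 47 of the genes, and that in Zfp809 only there. All 5 encode the same linker in different codons.

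The question of the study's design is what the K3R3 form of H2A.Z changes. Among the active Zfp genes 1 rose in the K3R3 library and 0 fell, with edgeR (quasi-likelihood, both sides tested, p-values adjusted over all genes by Benjamini and Hochberg, threshold 0.05). That is 0.346% of the 289, beside 2.57% of all 13829 genes tested and 1.34% of the other active genes. Higher calls alone made up 2.02% of all genes and 0.851% of the other active genes, and lower calls 0.542% and 0.486%. At an unadjusted p under 0.05 there were 14 Zfp genes (4.84%), 8 higher and 6 lower, beside 11.2% of all genes and 7.84% of the other active genes. DESeq2 called 0 of the 289, beside 0.427% of all genes and 0.262% of the other active genes. By the authors' deposited table, 6 of the 294 had an unadjusted p under 0.05 (2.04%), beside 4.86% of all its genes and 3.34% of the other active ones. The median fitted log2 change was 0.03 (interquartile range -0.14 to 0.22), against -0.05 for the other active genes and -0.01 for all. It was above 0 in 54.0% of the 289, beside 48.0% of all genes and 42.6% of the other active genes. A Zfp gene above 2-fold in K3R3 against both wild-type libraries was found once (0.356% of 281, beside 2.10% of all genes and 0.842% of the other active genes), again Zfp711, and 0 lay below by that much (0.172% and 0.0979%).

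**Figure D1:**
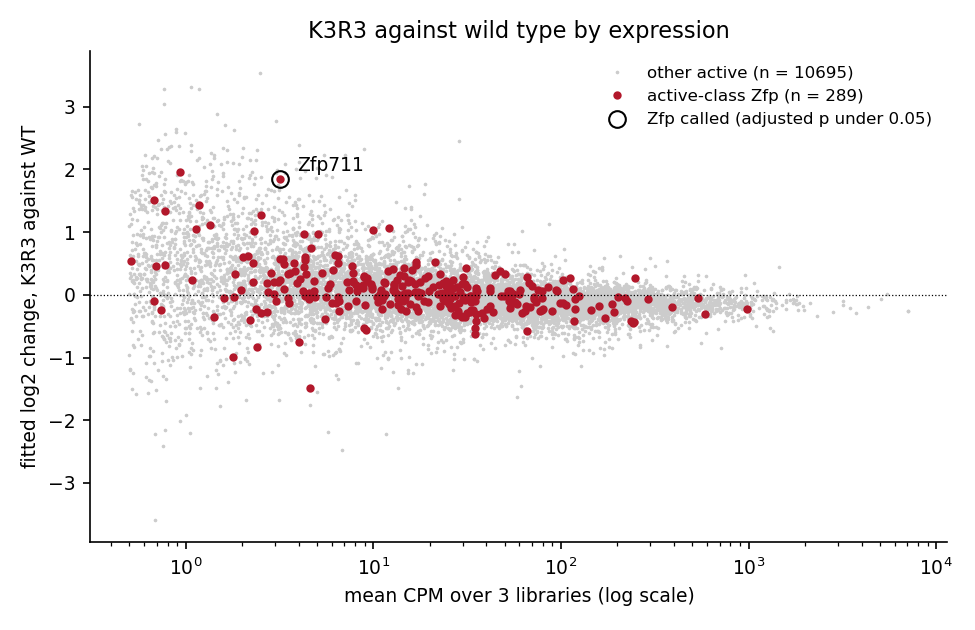
Fitted log2 change of K3R3 against wild type (vertical axis) by mean CPM over the 3 libraries (log scale). Red points are the 289 active Zfp genes, grey points the 10695 other active genes, and the circle marks Zfp711, the only Zfp gene with an adjusted p under 0.05; the red points lie within the spread of the grey ones at each level.

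Zfp711 is an X-linked gene whose protein brings the histone demethylase PHF8 to promoters. It had 26 and 54 counts in the wild-type replicates and 160 in K3R3, or 1.24, 2.18 and 6.15 CPM. K3R3 was the highest of the 3 libraries by a margin wider than the gap between the replicates. The fitted log2 change was 1.84 (SE 0.50; adjusted p = 0.0144 by edgeR), with 2.27 and 1.48 against each replicate alone. DESeq2 gave the same size with an adjusted p of 0.469, and over the other edgeR settings the adjusted p ranged from 0.00575 to 0.0171. The authors' deposited table gave it an unadjusted p of 0.00646. Its reference protein had 11 fingers and no KRAB match, no 36-letter stretch of its transcript occurred in another gene, and no Zfp gene lay beside it.

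The genes next to it by p on the higher side did not pass the adjusted test. Zfp334, a KRAB gene with 14 fingers, stood at 7.85 and 9.83 CPM in wild type and 18.5 in K3R3 (log2 1.06, SE 0.34, adjusted p = 0.0621 by edgeR). Zfp248, a KRAB gene with 7 fingers, stood at 5.57, 9.14 and 15.1 CPM (log2 1.03, SE 0.36, adjusted p = 0.0994). Both passed when libraries were scaled by the totals that the deposited RPKM values imply, with 1.18 (adjusted p = 0.0196) and 1.15 (adjusted p = 0.0355). In the authors' deposited table they had unadjusted p-values of 0.00700 and 0.0239. Zfp677 had the same wild-type counts as Zfp711 (26 and 54) and 108 in K3R3, a log2 change of 1.27 (adjusted p = 0.269). The other 6 of the 10 largest positive changes at a mean CPM of at least 2 were Zfp691, Zfp30, Zfp286, Zfp454, Zfp593 and Zfp637, between 1.01 and 0.62. In all 10 the K3R3 library lay above both wild-type libraries, as the choice required, and 6 of them are KRAB genes. For Zfp593 replicate 1 was the higher wild-type library and for the other 9 it was replicate 2.

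On the other side the widest gap was that of Zfp750, a factor of epidermal differentiation. It stood at 9.56 CPM in replicate 1, 2.09 in replicate 2 and 2.07 in K3R3 (log2 -1.48, SE 0.50, adjusted p = 0.0828). Replicate 1 alone was high, and K3R3 and replicate 2 differed by -0.01. Zfp704, by contrast, had close replicates, at 74.3 and 73.4 CPM, and 49.3 in K3R3 (log2 -0.58, SE 0.24, adjusted p = 0.247). Zfp292, a nuclear protein with 14 fingers and no KRAB match, stood at 285, 250 and 198 CPM (log2 -0.43). Zfp534, a KRAB gene, stood at 273, 258 and 193 CPM (log2 -0.46), and Zfp59 at 35.9, 43.2 and 25.8 CPM (-0.62). These values may not be single-gene levels, since 81.1% of the Zfp534 and 61.5% of the Zfp59 stretches occur in transcripts of other genes. Under the same limits as for the positive changes, Zfp174, Zfp27, Zfp74, Zfp810 and Zfp459 made up the 10, from -0.84 to -0.42, with adjusted p-values from 0.723 to 0.781 by edgeR for 4 of them and 0.493 for Zfp74. The authors' deposited table gave unadjusted p-values of 0.0270, 0.0346 and 0.0473 for Zfp704, Zfp59 and Zfp534.

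**Figure D2:**
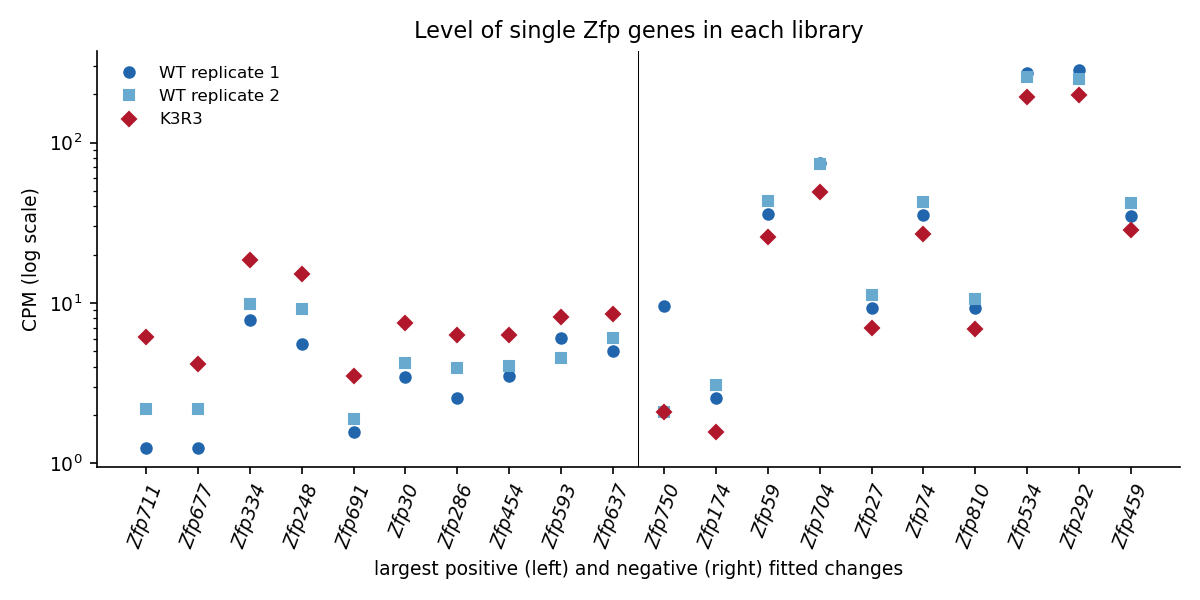
CPM (log scale) in wild-type replicate 1 (circles), wild-type replicate 2 (squares) and K3R3 (diamonds) for the 10 active Zfp genes with the largest positive fitted changes (left of the line) and the 10 with the largest negative ones (right), limited to a mean of 2 CPM or more and to genes whose K3R3 value lies outside both wild-type values. Zfp711 stands at 1.24, 2.18 and 6.15 CPM, and Zfp750 is high in replicate 1 alone (9.56 CPM).

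Expression and KRAB status were set against the fitted change. Low levels went with positive values in Zfp genes as in other active genes. At a mean CPM of 0.5 to 2 the medians were 0.39 (18 Zfp genes) and 0.40 (other active genes), at 2 to 10 they were 0.19 (85) and 0.15, at 10 to 100 they were 0.00 (160) and -0.06, and at 100 or more -0.16 (26) and -0.13. Against the trend of other active genes on expression, the median Zfp gene lay at 0.03, with 158 of 289 above. With gene length added to the trend this became -0.01, and with GC content -0.02. KRAB genes had a median of 0.04 (173) and genes without a KRAB match -0.00 (114). This difference of 0.05 was 0.22 without wild-type replicate 2 and -0.05 without replicate 1, so its direction turned on which replicate was kept.

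By level per length, the most abundant of the 294 were Zfp57 (mean of 145 RPKM), Zfp207 (118), Zfp106 (72.1), Zfp534 (55.5) and Zfp330 (47.4). The median was 3.28 RPKM, 52 genes lay above 10 RPKM and 59 below 1. Zfp42, left out by the rule, stood at 380, 398 and 376 CPM.

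Zfp factors linked to the ES cell network or to chromatin loops and complexes were described next. Of the 12 tested, 0 were called by edgeR or DESeq2, beside 2.57% and 0.427% of all genes. Their fitted log2 changes had a median of -0.23. Of the 12, 10 lay below 0, beside 52.0% of all genes, 57.4% of the other active genes and 46.0% of the 289. Other active genes had a median of -0.06 at 10 to 100 CPM and of -0.13 at 100 CPM or more. The list was drawn up with earlier results of these data known, so the shares are no test of it. At an unadjusted p under 0.05 by edgeR, 3 of the 12 lay lower. The shares were 3.33% of all genes, 3.43% of the other active genes and 2.08% of the 289. Those were Zfp704, Zfp292 and Zfp462, the last a pluripotency-linked protein with 33 fingers, at 262, 253 and 192 CPM (log2 -0.42). Zfp281, a repressor that binds with Nanog, stood at 228, 230 and 215 CPM (-0.09), and Zfp143, a promoter factor found at chromatin loops, at 66.1, 66.1 and 54.0 CPM (-0.29). In Zfp143 the replicates were equal to 3 digits and K3R3 lay below them. Zfp148 stood at 122, 133 and 96.3 CPM (-0.41), and Zfp217, Zfp532, Zfp592 and Zfp219 lay between -0.24 and -0.09. Zfp687 (0.03) and Zfp296 (0.49, at 2.95, 2.94 and 4.15 CPM) lay above 0. With the implied library totals the list median was -0.11, and 8 of 12 were below 0. The median of all genes was then 0.10, so the shares above do not apply to that count. Summed ES marker levels were 5509 and 4403 CPM in wild-type replicates 1 and 2 and 3695 in K3R3. Of the 8 ES markers 7 lay below 0, beside 52.0% of all genes, and Nanog lay above at 0.18. With the implied totals 6 lay below 0, and the share of all genes was not counted. For 2 of the 8, Pou5f1 and Utf1, K3R3 lay between the replicates. Sox2 and Dppa5a were called lower by edgeR, beside 0.542% of all genes. DESeq2 called 0 of the 8, beside 0.427% of all genes. In bulk RNA fewer cells of a type and less RNA per cell cannot be told apart.

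A list of 16 KRAB genes, of which only some are known to guard imprints or to silence repeats, had fitted changes on both sides of 0. Of these, 11 lay below 0, beside 52.0% of all genes and 57.4% of the other active genes. Of the 16 tested, 0 were called by edgeR or DESeq2, beside 2.57% and 0.427% of all genes. At an unadjusted p under 0.05 by edgeR there was 1, beside 11.2% of all genes. Their median was -0.07, and 0.05 with the implied totals. Zfp57, which keeps methylation at imprinted control regions, stood at 561 and 690 CPM in wild type and 504 in K3R3 (log2 -0.31, SE 0.18, adjusted p = 0.571). Its K3R3 value lay below both replicates, and the replicates differed by more than K3R3 did from replicate 1. Zfp445, its partner in imprint maintenance, stood at 185, 223 and 198 CPM (-0.04). Zfp809, which recognises retroviral primer binding sites, stood at 30.1, 38.9 and 37.0 CPM (0.10), and Zfp819, a repressor of endogenous retroelements, at 28.2, 28.9 and 32.2 CPM (0.18). Zfp568, which represses a placental Igf2 transcript, stood at 421, 396 and 356 CPM (-0.20). Zfp30 was the gene with an unadjusted p under 0.05, at 3.47, 4.23 and 7.53 CPM (0.96). The K3R3 value lay between the replicates in 9 of the 16, among them Zfp445, Zfp809, Zfp110 (105, 144 and 124 CPM) and Zfp748 (24.8, 45.7 and 36.8 CPM). Zfp932 (48.8, 50.5 and 48.9 CPM) and Zfp708 (8.66, 13.0 and 10.0 CPM) shared 67.6% and 100% of their stretches with transcripts of other genes. Their levels may therefore not be those of single genes. Zfp69, Zfp429, Zfp459, Zfp738, Zfp169 and Zfp202 lay between -0.42 and 0.57.

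Zfp-named proteins that act on RNA, ribosomes or other targets had a median of -0.04, which turned to 0.08 with the implied totals. Of the 15 tested, 0 were called by edgeR or DESeq2, beside 2.57% and 0.427% of all genes. At an unadjusted p under 0.05 by edgeR there were 0, beside 11.2% of all genes. Zfp106, an RNA-binding protein needed by motor neurons, stood at 1019, 1053 and 884 CPM (log2 -0.23), and Zfp207, a spindle and kinetochore protein, at 580, 506 and 526 CPM (-0.04). Zfp36, tristetraprolin, which promotes decay of messages with AU-rich elements, stood at 58.1, 64.7 and 74.6 CPM (0.28). Zfp598, the ubiquitin ligase that senses collided ribosomes, stood at 36.9, 30.1 and 27.5 CPM (-0.29), and Zfp622, a factor of large ribosomal subunit maturation, at 72.3, 71.6 and 70.6 CPM (-0.03). The remaining 10, among them Zfp346, Zfp326, Zfp830, Zfp706, Zfp91, Zfp277, Zfp512 and Zfp318, ranged from -0.25 (Zfp277) to 0.63 (Zfp593).

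The partners through which KRAB proteins act were compared in the same way (26 tested, 0 called by edgeR or DESeq2, beside 2.57% and 0.427% of all genes). Their median was -0.14 with 21 of 26 below 0 (52.0% of all genes, 57.4% of the other active genes). Under the implied totals it was -0.02 with 16 below 0, where the median was 0.10 for all genes and 0.07 for the other active genes. Most of these genes are abundant, and other active genes at 100 CPM or more had a median of -0.13. Trim28 stood at 1039 CPM in replicate 1, 729 in replicate 2 and 752 in K3R3 (log2 -0.23, adjusted p = 0.780), so it was high in replicate 1 alone. Setdb1 stood at 208, 209 and 191 CPM (-0.13). Atf7ip, the SETDB1 cofactor (103, 96.4 and 68.9 CPM; -0.53), and the remodeler Smarcad1 (337, 285 and 229 CPM; -0.44) stood lower in K3R3 with an unadjusted p under 0.05 and adjusted p-values of 0.276 and 0.288 by edgeR.

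A wider difference was present inside the wild-type group. In 230 of the 289 Zfp genes (79.6%) replicate 2 lay above replicate 1, beside 51.1% of all genes and 50.4% of the other active genes. The median difference in log2 CPM was 0.31 (interquartile range 0.05 to 0.57) for the Zfp genes and 0.00 for the other active genes. There is 1 such pair, so no test over samples exists for it. The value was 0.31 to 0.33 under 4 ways of scaling the libraries, 0.31 against the expression trend of other active genes, and 0.28 with gene length added. It was 0.30 among genes with at most 10% of shared stretches. By expression the median was 0.66, 0.28, 0.33 and 0.09 from the lowest to the highest CPM range, beside -0.01, -0.07, 0.00 and 0.03 for other active genes.

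The replicate difference was larger in KRAB genes than in genes without a match. It was 0.39 in 173 KRAB genes, 152 of them (87.9%) higher in replicate 2, and 0.14 in 114 without a match, 77 of them (67.5%) higher. It was also present outside the genes chosen by the rule, where 42 other active genes with a KRAB match and at least 5 fingers had a median of 0.34, with 36 higher in replicate 2. A further 67 with at least 5 fingers but no KRAB match had a median of 0.08. Other active genes include Zfp symbols that end in a letter, such as Zfp322a. By finger number the Zfp medians were 0.10 (0 to 4 fingers, 45 genes), 0.22 (5 to 9, 81), 0.44 (10 to 14, 102) and 0.32 (15 or more, 59). Genes with Zfp neighbours on both sides had 0.38 (78), on 1 side 0.36 (78) and on neither 0.22 (131). A RefSeq position was found for 282 of the 294. On chromosome 13, 26 of 26 tested Zfp genes lay higher in replicate 2 (median 0.56; 23 with KRAB), on chromosome 17 31 of 36 (0.36; 32 with KRAB), and on chromosome 7 55 of 73 (0.32; 48 with KRAB). The median fitted K3R3 changes on these chromosomes were -0.06, -0.05 and 0.17.

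**Figure D3:**
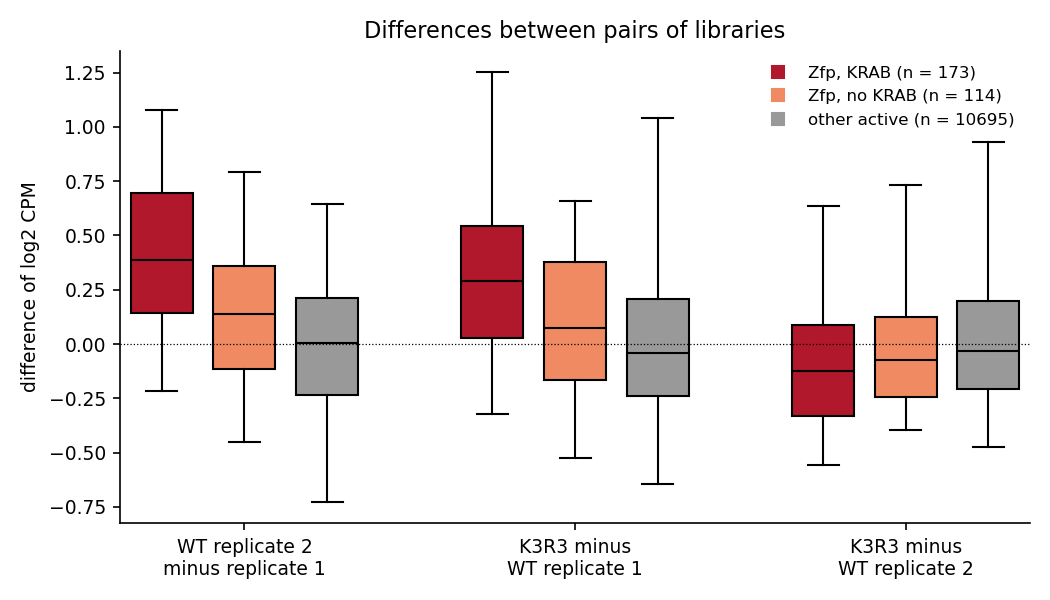
Differences of log2 CPM between the 3 pairs of libraries for Zfp genes with a KRAB match (dark red, n = 173), Zfp genes without (orange, n = 114) and other active genes (grey, n = 10695). Lines are medians, boxes interquartile ranges and whiskers the percentiles 5 and 95; the KRAB median is 0.39 between the wild-type replicates, 0.29 for K3R3 minus replicate 1 and -0.12 for K3R3 minus replicate 2.

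The 6 widest gaps in single genes at a mean CPM of at least 10 are given here, with the genes chosen after their values were seen. They lie far from the median of 0.31. Zfp940 stood at 10.9 CPM in replicate 1, 26.3 in replicate 2 and 26.8 in K3R3, a replicate difference of 1.27. Zfp39 stood at 7.85, 17.7 and 13.3 CPM, and Zfp629 at 7.09, 14.9 and 12.5. Zfp799 stood at 20.4, 42.7 and 29.7 CPM, and Zfp493 at 9.80, 19.98 and 14.3. In these 5 replicate 1 was the lowest library, and in 4 of them, Zfp940 apart, K3R3 lay between the replicates. The choice by a wide replicate gap makes such an order more likely. Zfp365 went the other way, at 80.8, 39.2 and 54.4 CPM, and its protein had no finger pattern.

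The Zfp genes of K3R3 were nearer to replicate 2 than to replicate 1. The median Zfp difference was 0.22 for K3R3 minus replicate 1 and -0.10 for K3R3 minus replicate 2, and the corresponding values for other active genes were -0.04 and -0.03. These pairs share libraries with each other and with the wild-type pair. The differences of the Zfp genes had an SD of 0.45 between the replicates, and of 0.50 and 0.38 for K3R3 against replicates 1 and 2. Other active genes had the SDs 0.46, 0.55 and 0.47, and the chi-square per degree of freedom over all genes was 24.3, 30.2 and 21.04, so K3R3 was nearer to replicate 2 than to replicate 1 by these measures outside the Zfp genes as well. K3R3 lay between the wild-type libraries in 131 Zfp genes (45.3%, beside 31.9% of all genes and 34.0% of the other active genes), above both in 88 (30.4%, beside 33.9% and 27.8%) and below both in 70 (24.2%, beside 34.2% and 38.2%). This order rests on the scaling. With the implied totals K3R3 lay above both in 132, below both in 34 and between in 123, and the medians were 0.36 and 0.01. Those totals moved the median fitted change of all genes up by 0.12. The order of libraries was not counted in other genes under them, so these counts have no share beside them. Against the expression trend of other active genes the medians were 0.19 and -0.12.

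Transcript GC content moved with the replicate difference. Its median was 45.8% in Zfp genes (43.1% with KRAB, 50.1% without) and 50.5% in other active genes. Below 40% GC the replicate difference was 0.41 in Zfp genes and 0.19 in other active genes, at 40% to 45% it was 0.44 and 0.14, at 45% to 50% 0.32 and 0.06, at 50% to 55% 0.20 and -0.06, and at 55% or more -0.17 and -0.22. The Zfp median was thus the higher in each range. Taking off a trend on expression and GC content left 0.20 of the 0.31, with 207 of 287 above the trend. For KRAB genes this step took 0.41 to 0.24, and for genes without a match 0.14 to 0.17. K3R3 minus replicate 2 was -0.22, -0.19, -0.08, -0.00 and 0.16 over the same ranges in Zfp genes and -0.17, -0.15, -0.09, 0.00 and 0.13 in other active genes. K3R3 minus replicate 1 was 0.21, 0.25, 0.26, 0.31 and -0.01 in Zfp genes and -0.01, -0.01, -0.03, -0.06 and -0.07 in other active genes. Whether GC content, the RNA or the culture set the replicate difference was not tested.

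**Figure D4:**
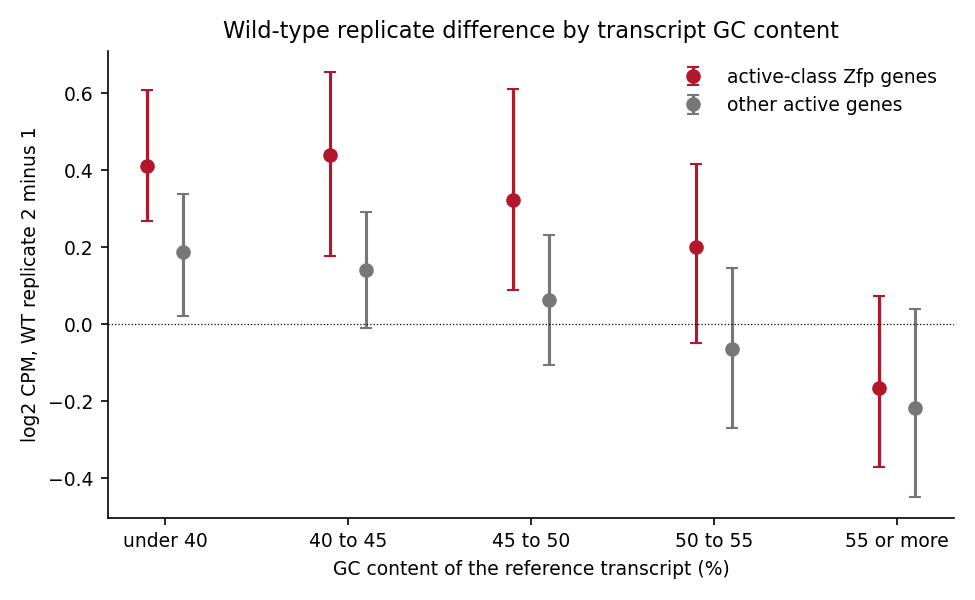
Difference of log2 CPM between wild-type replicates 2 and 1 by GC content of the reference transcript, for active Zfp genes (red) and other active genes (grey). Points are medians and bars interquartile ranges; the grey medians go down from 0.19 to -0.22, the red ones go from 0.41 through 0.44 to -0.17, and the red median is the higher in each range.

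Promoters were compared in 245 of the genes with an entry of 250 bases before to 50 after the start (RefSeq, GRCm38.p6). Letters were searched on both strands. The GC box GGGCGG was present in 44.9% of Zfp promoters (37.3% with KRAB, 57.6% without), against 66.9% of 8940 other active promoters and 35.9% of all 27025. The median number of CpG dinucleotides was 15 (11 with KRAB, 20 without) against 21 in other active genes. The ETS letters CCGGAAG were in 21.6% of Zfp and 19.8% of other active promoters (9.12% of all), and the NRF1 motif in 10.2% and 11.5% (4.78% of all). These letters describe the window and are no evidence of binding.

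Numbered Zfp genes outside the active class were compared last. The 13 bivalent ones had a median fitted log2 change of 0.56 with 0 called. The 13 tested without a class code had -0.01 with 1 called, beside 2.57% of all genes. That gene was Zfp287, a KRAB gene with 14 fingers, at 2.57, 1.89 and 6.84 CPM (log2 1.62, SE 0.47, adjusted p = 0.0282 by edgeR; 0.526 by DESeq2). Its K3R3 value lay above both wild-type libraries. All the bivalent Zfp genes but Zfp423, Zfp516 and Zfp800 had a mean level below 10 CPM. Other active genes had medians of 0.40 at 0.5 to 2 CPM and 0.15 at 2 to 10 CPM. Bivalent genes without a Zfp name were not compared. The replicate difference was 0.28 in the bivalent and 0.36 in the uncoded Zfp genes. The 2 genes with a code of 0, Zfp951 and Zfp600, had fitted changes of -1.001 and -0.42 (0 called) and a median replicate difference of -0.03.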

How the data were processed

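The authors deposited a whole-number count for each gene. HTSeq 0.5.4p1 and mm9 are named in the submitters' processing notes, while the aligner, annotation and strand setting are not given in the sources used here, so reads of overlapping or antisense genes cannot be told apart. The authors also deposited RPKM values, used for levels per length and for implied library totals. For their own comparison the authors deposited a fold ratio with its log2 and a p-value without adjustment, and the same notes name DESeq 1.10.1. For 37 of 37 genes with a fitted change beyond 0.5 the sign of the deposited log2 was opposite to K3R3 minus wild type, so directions here come from the counts. The table's smallest count is 1.

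Counts were fitted with edgeR 4.0.16 (R 4.3.3) with TMM scaling, after a filter at 0.5 mean CPM, on all 3 libraries and with group as the only term. The spread has 1 residual degree of freedom from the wild-type pair, and the single K3R3 library is taken to vary in the same way. With an infinite prior, p-values rest on the dispersion trend (common dispersion 0.0325). DESeq2 1.42.0 and the edgeR likelihood ratio test were alternatives. Differences between single libraries are log2 CPM with a prior count of 1. The size rule added 1 CPM to each library and took genes reaching 1 mean CPM. Trends were loess fits (span 0.4) on other active genes. The edgeR fit was run on simulated counts with known fold changes. These had the common dispersion and equal wild-type levels, so they did not hold the replicate difference described above.

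KRAB domains were found with HMMER 3.4 (profile of 116 seed proteins, 42 residues, E-value of at most 0.001, 14364 proteins searched), and fingers by their cysteine and histidine spacing. Named genes are every called gene, the 10 largest changes each way at a mean CPM of at least 2 with K3R3 outside both wild-type values, the 5 highest by RPKM, the role lists, Trim28, Setdb1 and Zfp42. The members and lists were chosen with earlier results of these data known.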

Additional observations from a re-analysis of the deposited data

How the results depend on the processing

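Changing the normalisation, filter, tool, trend or membership left the median K3R3 values within a limit drawn from the values against each wild-type replicate alone. For the median fitted change that limit was an SD of 0.23, wide beside the main value of 0.03. Small values turned sign within such a limit. Against the expression trend the median was 0.03, with gene length added -0.01 and with GC content added -0.02. The count of Zfp genes called higher was 3 with library totals implied by RPKM (Zfp711, Zfp334 and Zfp248) and 0 with DESeq2, and the count called lower was 0 throughout. The count beyond the fold limit was 7 at 1.5-fold, a limit at which other genes were not counted. Leaving out a wild-type replicate leaves 1 library against 1 and no test. The fold count then ranged from 1 to 8, the higher value without replicate 2, with no count of other genes beside it. The median fitted change ranged from -0.10 to 0.22, and the median against the expression trend from -0.12 to 0.19. For the KRAB difference the range was -0.05 to 0.22, with the lower end without replicate 1 in each case. Implied totals moved the median of all genes up by 0.12 and turned the sign of small negative changes: Zfp110 0.11, Zfp169 0.029, Zfp207 0.080, Zfp219 0.040, Zfp281 0.030, Zfp326 0.0035, Zfp346 0.11, Zfp445 0.081, Zfp622 0.096, Zfp706 0.063, Zfp708 0.010, Zfp738 0.018, Zfp932 0.10, Zfp799 0.032, Zfp493 0.062 and Zfp42 0.074. Calls over all genes numbered 515 with implied totals and 59 with DESeq2, against 355. The GC trend and the limit on shared stretches were chosen after seeing the data. No paired analysis was possible because K3R3 has 1 library and no replicate number. K3R3 had no replicate, so library and genotype cannot be told apart.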
